A study of Mus musculus with 6 samples.

Results

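The genes described here make, sense, move and export cholesterol, and they were followed in adult mouse spinal cord without Nogo-A and in wild-type (WT) cord. They were chosen by name: every probe set annotated to 29 listed genes was taken, whatever its signal. Of these, 27 genes had at least 1 probe set, 60 probe sets in all among 45037 that are not array controls, while the signals of Acat2 and Soat1 were not analysed here. Nogo-A is the longest product of Rtn4, a membrane protein of oligodendrocytes and neurons known as an inhibitor of axon growth. The series compared 3 Nogo-A KO cords with 3 WT cords, all from untreated male C57Bl/6 mice aged 4 months, 1 array per animal, on the Mouse 430 2.0 GeneChip. The labels do not say how the Nogo-A allele was made, and the RNA came from whole cord with all of its cell types. In such tissue, fewer cells of a type and less RNA per cell cannot be told apart.

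Cells build cholesterol from acetyl-CoA through mevalonate, farnesyl diphosphate, squalene and lanosterol. The transcription factor made by Srebf2 drives most of these enzymes, and it is held in the endoplasmic reticulum by the Insig proteins and released with Scap when membrane sterol is low. The adult central nervous system makes its own cholesterol behind the blood-brain barrier, and myelin holds most of it, so oligodendrocytes and astrocytes are its main producers.

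The values are MAS 5.0 signals, which the submitters' software had scaled to the same trimmed mean on every array. Of the probe sets for Rtn4, 1437224_at read 78.2, 9.17 and 5.08 in Nogo-A KO cords, against 3560.2, 2790.4 and 2801.6 in WT cords (limma adjusted p = 0.0151). It lay under the array median on all 3 Nogo-A KO arrays and under it on no WT array. The other 4 Rtn4 probe sets were 1.32-fold to 1.62-fold higher in Nogo-A KO cords, each without overlap, and their adjusted p-values ran from 0.538 to 0.591 (limma). To be tested, a probe set had to reach the 50th percentile of the array's values on 2 or more of the 3 arrays of a genotype. That kept 23525 probe sets, 51 of them for sterol genes, and left out 9 weak ones from Fdps, Fdft1, Lss, Msmo1, Hsd17b7, Scap, Npc2 and Abcg1. All 27 genes kept at least 1 probe set. Signals of different probe sets do not compare the abundance of genes, so sterol genes are compared within 1 probe set; summed signals are given for cell type markers only, and in such a sum bright probe sets weigh more than dim ones.

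The sterol genes differed little between the genotypes. No probe set of any of the 27 genes passed limma's test at an adjusted p under 0.05, where 0.00425% of all tested probe sets did (1 of 23525, the lost Rtn4 probe set). Before adjustment, 6 of the 51 were higher in Nogo-A KO cords at p under 0.05 and 0 were lower, and these 6 belong to Hmgcs1, Mvk, Fdps, Fdft1, Srebf1 and Abca1. Across all tested probe sets, 4.31% were higher and 3.98% lower by the same rule. Among the 11676 probe sets left by a 75th percentile filter, 39 of them for sterol genes, these shares were 6.67% and 2.1%. All 3 Nogo-A KO values lay above all 3 WT values for 8 of the 51, where 7.85% of all tested probe sets did so, and below them for 2 of the 51, where 6.62% did. The log2 change lay above 0 in 35 of 51, against 51.4% of all tested probe sets. Under quantile normalization, 5 of the 51 were higher and 0 lower at that threshold, beside 3.69% and 2.81% of all tested probe sets. Changes ran from -0.34 to 0.73 on the log2 scale with a median of 0.07, and the median of all tested probe sets was 0.01.

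With 1 probe set per gene, the brightest, 19 of 27 genes lay above 0, where 55.8% of all 11645 genes did. The gene median was 0.08, against 0.03 for all genes. At an unadjusted p under 0.05, 4 genes were higher in Nogo-A KO cords (Hmgcs1, Mvk, Fdps and Srebf1) and 0 were lower, beside 4.95% higher and 3.25% lower among all genes. The 95% interval of the fold change stayed inside 1.5-fold in either direction for 22 of the 27, and reached past it for Abcg1, Mvd, Mvk, Npc1 and Srebf1.

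**Figure D1:**
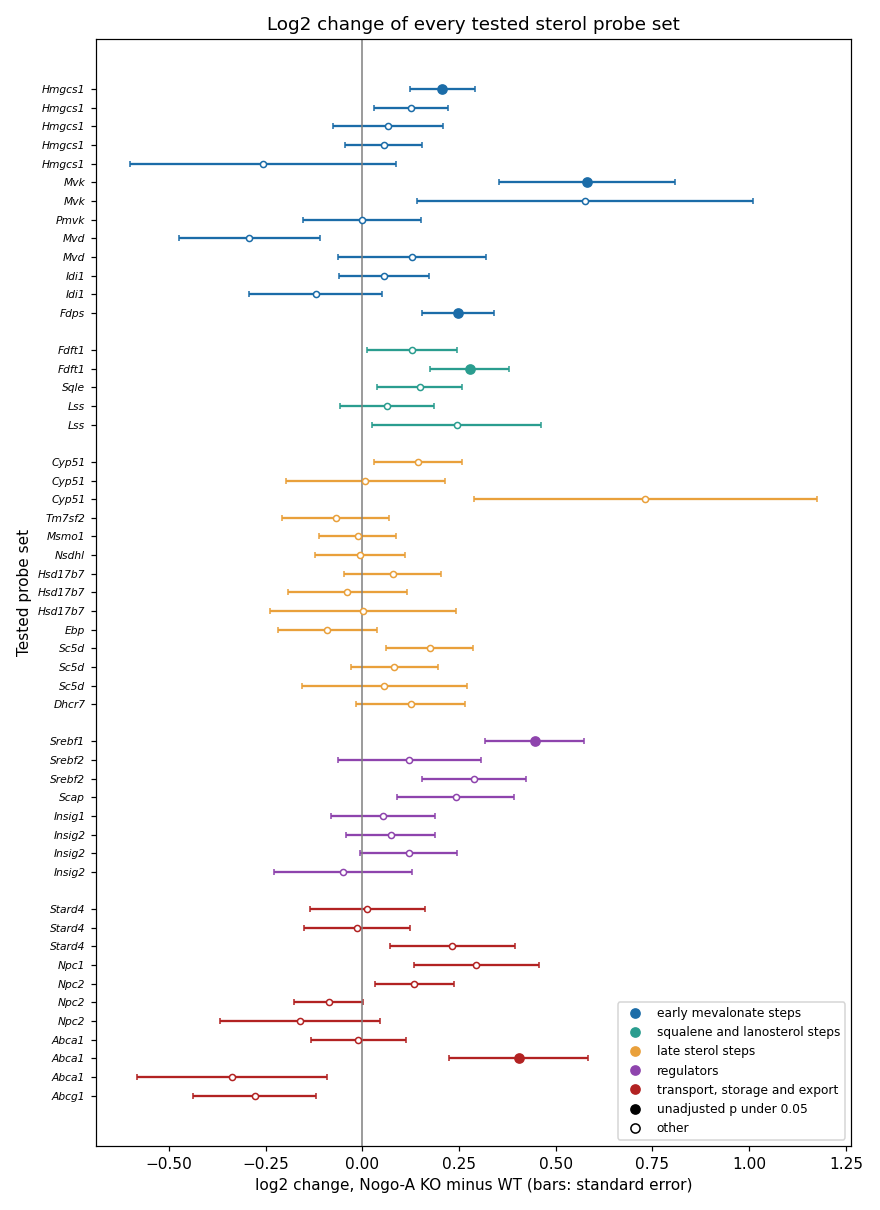
Log2 change (Nogo-A KO minus WT, horizontal axis) of the 51 tested sterol probe sets, grouped by role from top to bottom, with the standard error as bars; filled points have an unadjusted p under 0.05. The 6 filled points all lie to the right of 0, and 35 of the 51 points do.

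Promoter sequence was matched for 23 of the 29 genes. As examples, 4 stretches are printed that differ from each other in a pair of motifs known from sterol-regulated promoters. These 4 do not stand for the set, whose motif counts follow them. Each runs 5′ to 3′ over the 250 bases before the start, from RefSeq on GRCm38.p6, with motif matches in capitals. The motifs searched on both strands were CCAAT, the box bound by the factor NF-Y, and TCACNCCAC, a sterol regulatory element. The stretches are Hmgcs1 at chr13:119690101-119690350 on the plus strand, Mvk at chr5:114444019-114444268 on the plus strand, Srebf2 at chr15:82147019-82147268 on the plus strand and Abca1 at chr4:53159896-53160145 on the minus strand.
Hmgcs1: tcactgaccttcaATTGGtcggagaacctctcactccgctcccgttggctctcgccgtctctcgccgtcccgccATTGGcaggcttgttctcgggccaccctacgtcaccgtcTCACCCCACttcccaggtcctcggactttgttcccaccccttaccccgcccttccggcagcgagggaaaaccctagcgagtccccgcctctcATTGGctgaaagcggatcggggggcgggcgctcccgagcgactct
Mvk: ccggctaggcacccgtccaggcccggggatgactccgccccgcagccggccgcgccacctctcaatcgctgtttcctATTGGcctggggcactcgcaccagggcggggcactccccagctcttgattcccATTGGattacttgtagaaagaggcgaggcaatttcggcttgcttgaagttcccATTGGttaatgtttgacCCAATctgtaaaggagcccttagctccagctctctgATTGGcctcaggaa
Srebf2: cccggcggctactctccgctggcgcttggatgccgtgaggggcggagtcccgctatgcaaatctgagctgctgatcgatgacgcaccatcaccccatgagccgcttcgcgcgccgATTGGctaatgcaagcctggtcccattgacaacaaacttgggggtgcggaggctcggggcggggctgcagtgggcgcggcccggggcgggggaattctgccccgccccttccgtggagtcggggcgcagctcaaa
Abca1: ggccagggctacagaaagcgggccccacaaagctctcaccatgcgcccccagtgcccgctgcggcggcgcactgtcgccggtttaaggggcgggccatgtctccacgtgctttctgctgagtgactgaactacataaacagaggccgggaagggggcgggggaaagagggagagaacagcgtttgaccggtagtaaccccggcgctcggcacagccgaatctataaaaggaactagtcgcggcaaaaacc
In Hmgcs1 the element's first base lies 137 bases before the start, with CCAAT boxes at 237, 176 and 45. Mvk held 5 CCAAT boxes, Srebf2 held 1 at 135, and Abca1 held neither motif in this window. A CCAAT box was found in 20 of the 23 genes (87.0%), all but Abca1, Acat2 and Scap, compared with 40.2% of all 9457 array-tested genes that have a promoter entry. The sterol regulatory element was found in Hmgcs1 alone of the 23 (4.35%), compared with 1.26% of those genes. Some genes list several starts and so had several windows in which a match could fall. A match is a run of letters and was not tested as a binding site. Sequences that differ from a motif by 1 base were not counted, so a missing match does not show that a gene lacks such an element.

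The early steps turn acetyl-CoA units into farnesyl diphosphate. Of their 6 genes, 4 lay above 0, with a median log2 change of 0.13 and 3 genes at an unadjusted p under 0.05. Under quantile normalization that median was 0.03, and 1 of the 3 kept an unadjusted p under 0.05.

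Hmgcs1 makes HMG-CoA, the substrate of the pathway's controlled step. Its brightest probe set, 1433443_a_at, read 16225, 16534 and 18133 in Nogo-A KO cords, against 15551, 14384 and 14148 in WT cords. All Nogo-A KO arrays lay above all WT arrays, with means of 16964 ± 1024 and 14694 ± 751 (SD, n = 3 each). The fold was 1.15 (95% interval 1.01 to 1.31, unadjusted p = 0.0324, limma adjusted p = 0.595). Of the other probe sets for Hmgcs1, 1433445_x_at also separated the genotypes at 1.09-fold, although its suffix marks probes that can match other transcripts. The remaining folds were 1.05 for 1433444_at, 1.04 for 1433446_at and 0.838 for the dim 1441536_at, each with overlapping genotypes. The Hmgcs1 difference of 1433443_a_at shrank to a log2 change of 0.07 under quantile normalization (limma's unadjusted p = 0.322).

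Mvk phosphorylates mevalonate. Probe set 1418052_at read 497, 465 and 380.2 in Nogo-A KO cords, against 399.6, 226 and 291 in WT cords. The genotypes overlapped, since the lowest Nogo-A KO array lay under the highest WT array. The means were 447 ± 60.4 and 306 ± 87.8 (SD, n = 3 each), a fold of 1.50 (95% interval 1.06 to 2.11, unadjusted p = 0.0264, limma adjusted p = 0.594). The second Mvk probe set, 1430619_a_at, gave 1.49-fold with a wide interval of 0.769 to 2.89. Its values were 157, 226 and 292 in Nogo-A KO cords and 93.1, 116 and 290.2 in WT cords.

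Fdps makes farnesyl diphosphate, the branch point towards sterols and prenylated proteins. Probe set 1423418_at read 3429, 3532 and 3391 in Nogo-A KO cords, against 3119, 2804 and 2812 in WT cords. The genotypes did not overlap and the Nogo-A KO arrays lay close together, at 3450.4 ± 73.0, against 2912 ± 179.7 in WT cords (SD, n = 3 each). The fold was 1.19 (95% interval 1.03 to 1.37, unadjusted p = 0.0226, limma adjusted p = 0.594).

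The 3 other early genes showed no common direction. Mvd, which removes a carboxyl group to give isopentenyl diphosphate, had folds of 0.817 for 1448663_s_at and 1.09 for 1417303_at. Probe set 1448663_s_at read 376, 292 and 354 in Nogo-A KO cords, all below the 391, 384 and 474 of WT cords (unadjusted p = 0.137). Pmvk, the next kinase after Mvk, had a fold of 0.999 (95% interval 0.792 to 1.26). Idi1, the isomerase of isopentenyl diphosphate, had folds of 1.04 for 1451122_at and 0.920 for 1423804_a_at.

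**Figure D2:**
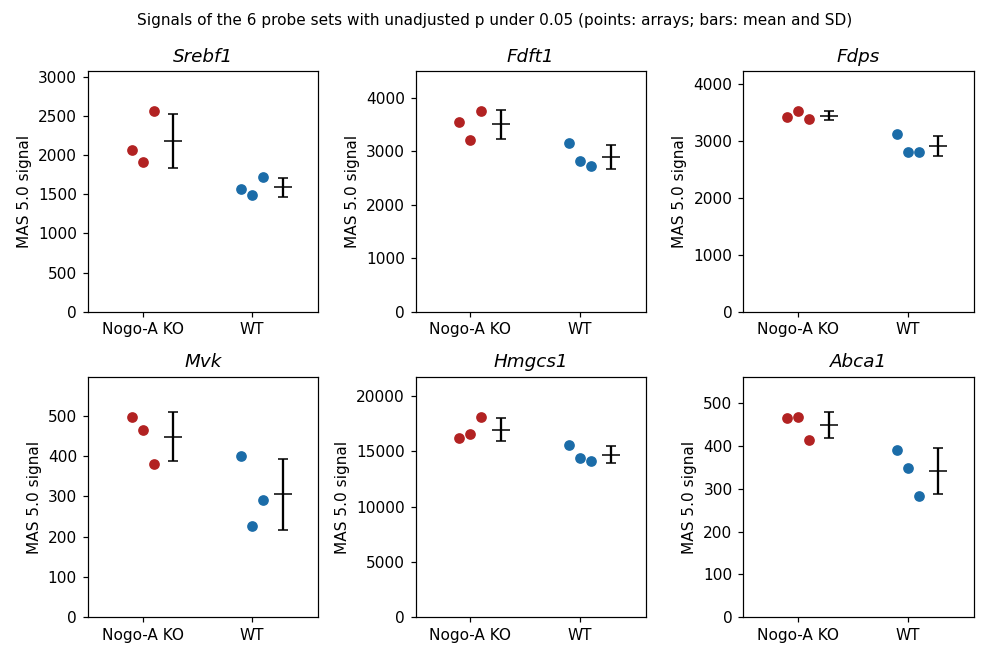
MAS 5.0 signal (vertical axes, from 0) on each Nogo-A KO and WT array for the 6 sterol probe sets with an unadjusted p under 0.05; points are arrays and bars are means with SD (n = 3 each). The genotypes do not overlap for Srebf1, Fdft1, Fdps, Hmgcs1 and Abca1, and they overlap for Mvk; no adjusted p is under 0.05.

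The next enzymes commit farnesyl diphosphate to sterols by way of squalene and lanosterol. All 5 of their tested probe sets, from Fdft1, Sqle and Lss, lay above 0, with a median log2 change of 0.15. Fdft1, squalene synthase, was the one with a probe set at an unadjusted p under 0.05. Its 1448130_at read 3552, 3219 and 3755 in Nogo-A KO cords, against 3145, 2821 and 2717 in WT cords. Every Nogo-A KO array lay above every WT array, at 3509 ± 271 and 2894 ± 224 (SD, n = 3 each). The Fdft1 fold was 1.21 (95% interval 1.04 to 1.42, unadjusted p = 0.0207, limma adjusted p = 0.594). The brighter Fdft1 probe set, 1438322_x_at, gave 1.09-fold with overlapping genotypes, the highest value of all 6 arrays being 5192 in WT replicate 1.

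Sqle, the epoxidase that is a second control point of the pathway, read 2704, 2419.9 and 2478 on 1415993_at in Nogo-A KO cords, against 2471, 2382 and 2023 in WT cords. The genotypes overlapped, with a fold of 1.11 (95% interval 0.938 to 1.31, limma adjusted p = 0.718). Lss folds epoxidised squalene into lanosterol. Probe set 1420013_s_at for Lss read 376, 353 and 386 in Nogo-A KO cords and 238, 313 and 413 in WT cords, a fold of 1.18 inside the WT spread. The brighter Lss probe set, 1426913_at, had a fold of 1.05 (95% interval 0.867 to 1.26).

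The 8 genes that turn lanosterol into cholesterol differed little. Of them, 4 lay above 0 and 4 below, the median log2 change was 0.04, and none of their 14 tested probe sets had an unadjusted p under 0.05. Sc5d, the sterol desaturase, had the smallest p among genes with signals above the array median: 1451457_at read 2893, 3568 and 3117 in Nogo-A KO cords, against 3124, 2707 and 2647 in WT cords. These genotypes overlapped, with a fold of 1.13 (95% interval 0.951 to 1.34, unadjusted p = 0.148).

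Cyp51, which demethylates lanosterol, had 1 of its 3 probe sets with separated genotypes. Probe set 1422534_at read 121, 168 and 152 in Nogo-A KO cords and 95.3, 104 and 68.1 in WT cords, but all 3 WT values and 1 Nogo-A KO value were under the median of their array. The brighter Cyp51 probe sets had folds of 1.11 for 1450646_at and 1.01 for 1422533_at. The bright 1450646_at read 2432, 2467 and 2154 in Nogo-A KO cords and 2358, 2129.6 and 1905 in WT cords, which overlap.

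Dhcr7, the reductase of the last step to cholesterol, read 738, 879 and 975 in Nogo-A KO cords and 729, 791 and 845 in WT cords. Its fold was 1.09 (95% interval 0.879 to 1.35, limma adjusted p = 0.826), and the genotypes overlapped, with 2 of the 3 Nogo-A KO arrays above every WT array. Msmo1, the methyl sterol oxidase, had a fold of 0.992 (95% interval 0.852 to 1.15), and Nsdhl, which acts beside it, had 0.996 (95% interval 0.834 to 1.19). The other fold changes were 0.954 for Tm7sf2, a sterol reductase, and 0.939 for Ebp, a sterol isomerase. Hsd17b7, the ketoreductase of the same demethylation steps, ran from 0.974 to 1.06 over its 3 tested probe sets. For these 5 genes the 95% intervals of the brightest probe sets lay between 0.772 and 1.28.

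**Figure D3:**
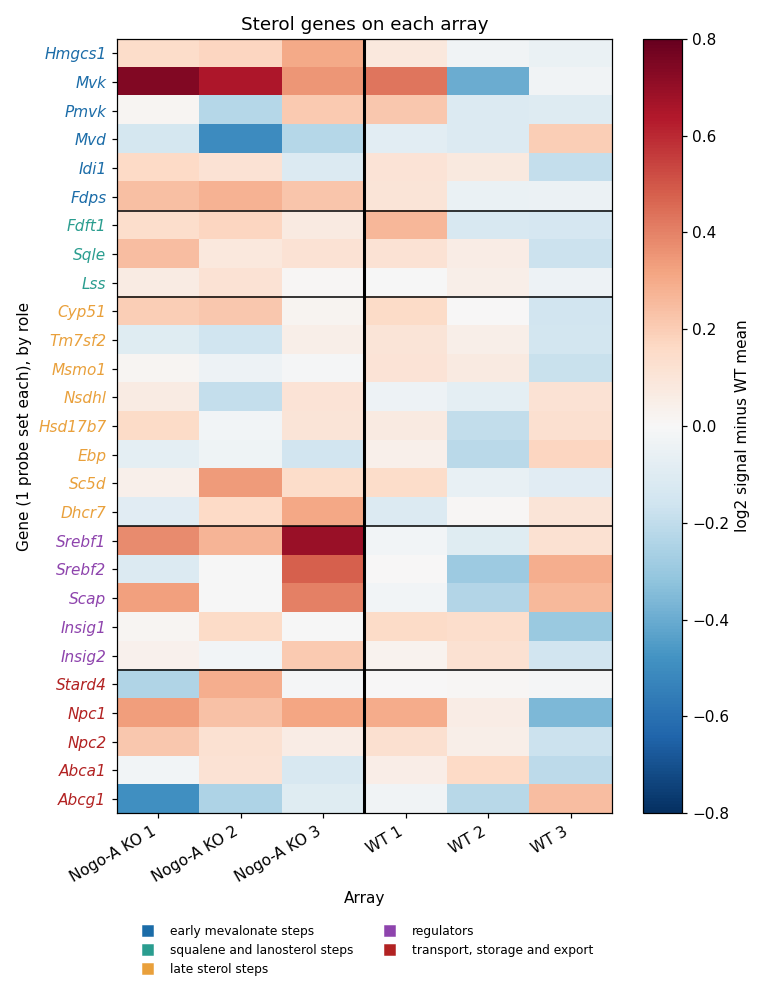
Log2 signal minus the WT mean (colour scale) for the 27 sterol genes, 1 probe set each, in rows by role, on the 3 Nogo-A KO arrays and then the 3 WT arrays. Srebf1, Mvk and Fdps are above the WT mean on all 3 Nogo-A KO arrays, Mvd and Abcg1 are below it, and the late sterol genes are pale throughout.

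Among the regulators, all 5 genes lay above 0, with a median log2 change of 0.12. By array, their median log2 signal above the WT mean was 0.04, -0.004 and 0.40 in Nogo-A KO cords. It was 0.003, -0.09 and 0.12 in WT cords, so only Nogo-A KO replicate 3 lay above the WT arrays. Srebf1 had the smallest p of all sterol genes. It encodes a factor whose main form in most tissues drives fatty acid synthesis, and which acts on sterol genes too. Probe set 1426690_a_at read 2063, 1917 and 2569.6 in Nogo-A KO cords, against 1563, 1489.8 and 1728 in WT cords. Every Nogo-A KO array lay above every WT array, at 2183 ± 343 and 1594 ± 122 (SD, n = 3 each). The Srebf1 fold was 1.36 (95% interval 1.12 to 1.66, unadjusted p = 0.00511, limma adjusted p = 0.591). With 1 array left out, the log2 change of Srebf1 ran from 0.32 to 0.53, and under quantile normalization it was 0.40 (limma's unadjusted p = 0.0115).

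Srebf2, the main driver of sterol synthesis genes, had a pair of probe sets above 0. On 1426744_at the signals were 794, 696 and 736 in Nogo-A KO cords, against 629, 555 and 638 in WT cords, without overlap. The fold was 1.22 (95% interval 0.996 to 1.50, unadjusted p = 0.0541, limma adjusted p = 0.605). The brighter 1452174_at for Srebf2 read 895, 962 and 1342 in Nogo-A KO cords and 966, 788 and 1178 in WT cords, which overlap. Its fold was 1.09 (95% interval 0.821 to 1.44), and replicate 3 was the highest array of each genotype.

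Scap, the escort that carries these factors to the Golgi, read 1769, 1402 and 1859.6 in Nogo-A KO cords and 1386, 1195 and 1683 in WT cords on 1433520_at. The genotypes overlapped, with a fold of 1.18 (95% interval 0.939 to 1.49, unadjusted p = 0.139). Insig1, the retention protein that sterol-regulated transcription itself raises, read 1825, 2009 and 1803 in Nogo-A KO cords and 2012, 1998 and 1472 in WT cords. Its fold was 1.04 (95% interval 0.845 to 1.27, limma adjusted p = 0.932), with only WT replicate 3 apart from the rest. Insig2, its relative, had folds of 0.965, 1.05 and 1.09 on 3 probe sets, all with overlapping genotypes.

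The 5 transport and export genes were divided: 3 lay above 0 and 2 below, with a median log2 change of 0.01. Npc1 and Npc2 hand cholesterol out of the lysosome after uptake. Npc1 on 1423086_at read 1098, 1022 and 1081 in Nogo-A KO cords, against 1069, 908 and 677 in WT cords. The Npc1 genotypes overlapped, with a fold of 1.23 (95% interval 0.959 to 1.57, unadjusted p = 0.0957). Without WT replicate 3, the low array, the log2 change for Npc1 was 0.11 (limma's unadjusted p = 0.378), against 0.29 with it. Npc2 gave folds of 1.10, 0.942 and 0.894 on its 3 tested probe sets. Stard4, a cytosolic sterol carrier, gave 1.01, 0.990 and 1.18.

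Abca1 and Abcg1 export cholesterol to apolipoproteins and lipoprotein particles. The 3 Abca1 probe sets disagreed. The brightest, 1421840_at, read 2020.5, 2220.1 and 1879 in Nogo-A KO cords and 2122, 2284 and 1776 in WT cords, a fold of 0.993 (95% interval 0.825 to 1.20, limma adjusted p = 0.988). On 1421839_at for Abca1 the signals were 464, 467 and 413 in Nogo-A KO cords, against 391, 349 and 283 in WT cords, all higher in Nogo-A KO cords. That fold was 1.32 (95% interval 1.01 to 1.74, unadjusted p = 0.0453, limma adjusted p = 0.599), and without WT replicate 3 its p was 0.119. On the dim 1450392_at the Abca1 signals were 208, 196 and 194 in Nogo-A KO cords, all below the 217, 313 and 234 of WT cords, a fold of 0.791 (unadjusted p = 0.196). Which of the transcript forms these probe sets read was not tested.

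Abcg1 on 1423570_at read 637, 756 and 838 in Nogo-A KO cords, against 879, 767 and 1065 in WT cords. The genotypes overlapped only between the highest Nogo-A KO array and the lowest WT array, and the fold was 0.825 (95% interval 0.647 to 1.05, unadjusted p = 0.109, limma adjusted p = 0.662).

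Probe sets of 1 gene often differed in direction. Of 14 genes with at least 2 tested probe sets, 6 had all of them on the same side of 0 (Cyp51, Fdft1, Lss, Mvk, Sc5d and Srebf2). The same share over all genes was not computed, so this count does not set the sterol genes apart. Among the 6 probe sets with an unadjusted p under 0.05, leaving out each array in turn kept that p for Srebf1 in 6 of 6 fits, for Mvk, Fdps and Fdft1 in 3 each, for Hmgcs1 in 2 and for Abca1 in 1. Of the tested sterol probe sets, 5 carry a suffix that marks probes shared with other transcripts, from Hmgcs1, Mvd, Fdft1, Lss and Hsd17b7.

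The arrays differed in their median and in how alike they were. The array median was 144.4, 149.3 and 144.1 in Nogo-A KO cords and 148.2, 169.5 and 195.6 in WT cords. WT replicate 3 correlated least with the other arrays (mean r 0.930, against 0.952 to 0.961 for the rest). It held the lowest value of all 6 arrays for 13 of the 27 sterol genes (48.1%), where it did so for 29.1% of all genes and 60.3% of the brightest 10% of probe sets. The median log2 signal of the sterol genes above their WT mean was 0.06, 0.12 and 0.10 in Nogo-A KO cords and 0.08, -0.03 and -0.05 in WT cords. WT replicate 1 thus lay among the Nogo-A KO arrays. The brightest 10% of tested probe sets gave 0.09, 0.10 and 0.10 in Nogo-A KO cords and 0.08, 0.02 and -0.10 in WT cords, and the part of this shift in the sterol values was not tested.

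**Figure D4:**
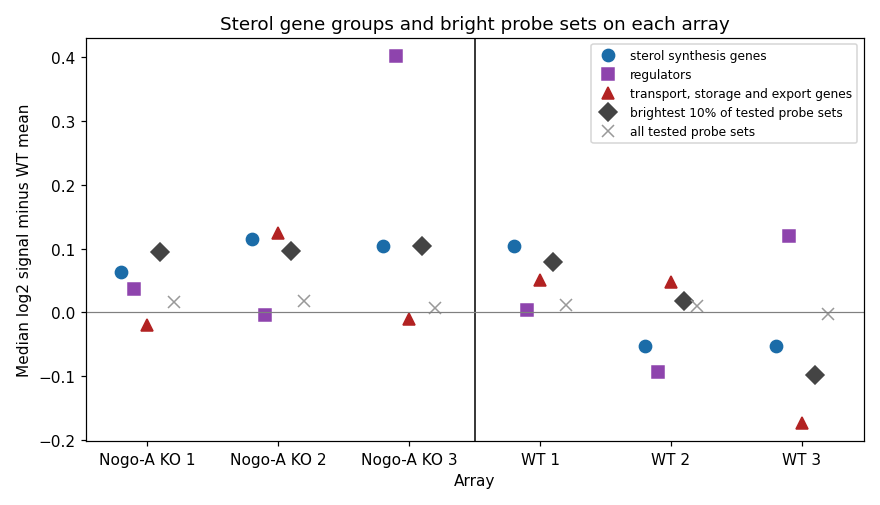
Median log2 signal minus the WT mean (vertical axis) on each array for the sterol synthesis genes, the regulators, the transport and export genes, the brightest 10% of tested probe sets and all tested probe sets. The synthesis genes are at 0.06 to 0.11 on the Nogo-A KO arrays and at 0.10 on WT replicate 1. The regulators are at 0.40 on Nogo-A KO replicate 3, at 0.04 on replicate 1 and at -0.004 on replicate 2.

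Other genes of sterol and fatty acid metabolism were listed beside them, 54 in all, of which 50 were tested. Of these, 32 lay above 0 and 0 passed limma's adjusted test. At the unadjusted threshold 3 were higher and 0 lower in Nogo-A KO cords. Among all genes, 1 probe set each, 55.8% lay above 0, 4.95% were higher and 3.25% were lower. Fasn, fatty acid synthase and a known target of the Srebf1 product, read 3135, 2955 and 2905 in Nogo-A KO cords, against 2439.8, 2117 and 2251 in WT cords. The genotypes were well apart, at 2998 ± 121 and 2269 ± 162 (SD, n = 3 each), with a fold of 1.32 (95% interval 1.14 to 1.54, unadjusted p = 0.00179, limma adjusted p = 0.591). Of the 10 fatty acid synthesis genes, 9 lay above 0, with a median log2 change of 0.14 that was 0.06 under quantile normalization. Among them Acaca, acetyl-CoA carboxylase, had a fold of 1.18 and Scd1, a desaturase, 1.12, while Gpam, which starts glycerolipid synthesis, had 0.897. Every Nogo-A KO array lay below every WT array for Gpam (limma's unadjusted p = 0.108). Under quantile normalization 1 of the 10 was higher at an unadjusted p under 0.05, Fasn, and 1 was lower, Gpam.

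Acly, which supplies cytosolic acetyl-CoA to both pathways, read 7196, 6994 and 7936 in Nogo-A KO cords, against 6683, 5988 and 6314 in WT cords. It was 1.16-fold higher (95% interval 1.01 to 1.34, unadjusted p = 0.0332, limma adjusted p = 0.595), without overlap, and 5 of the 8 genes of its list lay above 0. Pltp, the phospholipid transfer protein, read 5566, 4934 and 7522 in Nogo-A KO cords, against 4692, 4804 and 3790.4 in WT cords. Its fold was 1.34 (95% interval 1.07 to 1.69, unadjusted p = 0.0167, limma adjusted p = 0.591), and 12 of 18 other sterol transport genes, among them Lrp1 at 1.15, lay above 0. The 9 other regulators had 4 above 0. The 5 genes of oxysterol formation had 2 above 0, with Cyp46a1, the neuronal enzyme that clears brain cholesterol, at 1.04-fold, and Ch25h at 0.641-fold with overlapping genotypes.

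Markers of the cells that cord tissue holds were listed as well, and 0 of them passed limma's adjusted test. Their part in the sterol values was not tested. Among all genes, 4.95% were higher and 3.25% lower at an unadjusted p under 0.05. The median of the brightest 10% of tested probe sets was also higher on every Nogo-A KO array than on every WT array. The part of that shift in the summed signals was not tested. The summed signal of 9 oligodendrocyte markers, out of 10 listed, ran from 139532 to 152747 in Nogo-A KO cords and from 120958 to 129115 in WT cords, without overlap. By single genes, 6 of the 9 lay above 0, and Cldn11, Mog and Ugt8a lay below it. At an unadjusted p under 0.05, Mbp, Cnp and Aspa were higher, and under quantile normalization 1 was, with a median log2 change of 0.09, against 0.17 on the deposited scale. The 4 Schwann cell markers, out of 6 listed, summed to 17826 to 24593 in Nogo-A KO cords and 15000.2 to 17550.3 in WT cords. Of these, 3 lay above 0. At an unadjusted p under 0.05, 2 were higher, Pmp22 and Ncmap, and 2 were under quantile normalization too. Markers of fibroblasts and meninges summed to 9357 to 10444 in Nogo-A KO cords and 6348 to 8187 in WT cords, with 4 of 5 higher by the same rule and the fifth, Lum, lower. Lum, a matrix proteoglycan, had a fold of 0.723 without overlap (unadjusted p = 0.0131, limma adjusted p = 0.591). These counts of 4 and 1 were the same under quantile normalization. The 7 astrocyte markers overlapped, at 82561 to 86900 in Nogo-A KO cords and 73350 to 83162 in WT cords. By the unadjusted rule 0 of these were higher or lower, and 2 were lower under quantile normalization. The 7 neuron markers did not overlap, at 114275 to 116592 in Nogo-A KO cords and 95273 to 112289 in WT cords. By the unadjusted rule 2 of them were higher, but under quantile normalization 0 were higher and 1 was lower. The 7 microglia markers, out of 8 listed, summed to 9882 to 11142 in Nogo-A KO cords and 10009 to 13944 in WT cords. Only 1 of the 7 lay above 0, with a median log2 change of -0.21, and -0.18 under quantile normalization. C1qa was lower at an unadjusted p under 0.05, and 2 were lower under quantile normalization, C1qa and Csf1r. The 2 blood markers, out of 3 listed, summed to 515 to 540.4 in Nogo-A KO cords and 429 to 655 in WT cords. The 6 skeletal muscle markers stood out on Nogo-A KO replicate 2 at 13469 and on WT replicate 3 at 6519, compared with 1006 to 1987 on the other 4 arrays. The 4 adipocyte markers, out of 6 listed, stayed low, at 132 to 266 in Nogo-A KO cords and 136 to 575 in WT cords. Only 1 of them, Retn, was tested. It was lower at an unadjusted p under 0.05, but not under quantile normalization, and lay under the array median in all Nogo-A KO cords.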

How the data were processed

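The report covers 3 Nogo-A KO and 3 WT arrays. The authors deposited 1 signal intensity per probe set and array, made with GCOS 1.4 and MAS 5.0 per the submitters' processing notes; the deposited intensities have the same trimmed mean on every array, and detection calls were not used here, so a filter on the array's 50th percentile stood in for the present-call filter of the design text. Probe sets were named from GEO's platform annotation: 34945 of 45037 have 1 symbol, 932 several and 9160 none listed, and 64 control probe sets were left out. Signals were taken to log2 and fitted with limma 3.58.1 (R 4.3.3, empirical Bayes with trend), with Benjamini-Hochberg adjustment over 23525 probe sets. The tests were checked on simulated data. The number of arrays limits the precision. Each array comes from 1 animal, and all RNA was extracted on the same day, per the labels' protocols. Members, gene lists and tests were chosen with earlier results of these data known. All 29 genes are named; values on every array are given for up to 3 genes of each role with the smallest p, every probe set at an unadjusted p under 0.05, and the brightest probe sets of Hmgcs1, Sqle, Srebf2, Insig1 and Abca1. Of other lists, up to 4 genes with the smallest p are named. Alternatives were array-median scaling, quantile normalization, other filters, an offset, no trend, a replicate block, leaving out arrays, and the methods' t-test with a fold of at least 1.2.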

Additional observations from a re-analysis of the deposited data

How the results depend on the processing

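With 3 arrays per genotype, small differences of dim probe sets could not be resolved. No sterol gene passed the adjusted limma test under any alternative run, the smallest adjusted p being 0.127 for Srebf1 without WT replicate 3 and Nogo-A KO replicate 2, an alternative chosen after seeing the data. Of 266 values of 18 named probe sets under other settings, 258 kept their direction. Scaling arrays to their median moved all probe sets by 0.23 on the log2 scale and the sterol gene median to 0.30, against 0.08 as reported and 0.05 with quantile normalization. Its distance above the median of all tested probe sets was 0.07 as reported and with median scaling, 0.03 with quantile normalization and 0.17 with no filter. With no filter the sterol gene median stayed at 0.08, and the median of all probe sets fell to -0.09. That distance sets genes against probe sets, and the median of all genes, 1 probe set each, was 0.03 as reported. The count of all probe sets with an adjusted p under 0.05, 1 as reported, was 0 without the trend and 0 by the methods' t-test, 4 with the replicate block, and 0 to 9 when arrays were left out. At an unadjusted p under 0.05, 1013 probe sets were higher as reported, 2805 with median scaling, 527 by the t-test, and 392 to 1646 without single arrays or that pair; 937 were lower as reported, 265 with median scaling, 2488 with no filter, 1808 with a filter at the 25th percentile and 245 at the 75th, 609 by the t-test, and 554 to 1729 without arrays. The share of calls that were higher was 51.9% as reported, 91.4% with median scaling and 56.8% with quantile normalization. Of sterol probe sets, 6 were higher as reported, 10 with median scaling and 1 to 9 without arrays; 0 were lower, 2 with no filter, 1 with the 25th percentile filter and 0 to 1 without arrays. Of sterol genes, 4 were higher as reported, 2 with quantile normalization, 2 without the trend, 1 by the t-test and 1 to 6 without arrays, and 0 to 1 were lower without arrays. Of the other pathway genes, 3 were higher as reported, 7 with median scaling, 1 without the trend, 1 by the t-test and 1 to 6 without arrays; 0 were lower, 2 with quantile normalization and 0 to 2 without arrays. Their median was 0.03 as reported and 0.25 with median scaling.

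Values turned sign for Srebf2 1452174_at without Nogo-A KO replicate 3 (-0.056) and WT replicate 2 (-0.024), within a range of -0.056 to 0.33 when arrays were left out. They did so for Insig1 1454671_at without WT replicate 3 (-0.096) and without that pair (-0.14), within a range of -0.14 to 0.13. Abca1 1421840_at was above 0 with median scaling (0.21) and without Nogo-A KO replicate 3 (0.048), WT replicate 1 (0.015) or WT replicate 2 (0.068), within a range of -0.18 to 0.068. The cause was not tested. The lost Rtn4 1437224_at missed the threshold by the methods' t-test, which gave no adjusted p under 0.05, without the trend (-7.62, adjusted p = 0.533), without Nogo-A KO replicate 2 (-7.25) and without WT replicate 2 (-7.68), its change running from -8.79 to -6.82 without single arrays. Whether replicate numbers pair the arrays cannot be told from these values. The deviations of same-numbered arrays had correlations of -0.035, 0.074 and 0.114. Those of the other pairs ran from -0.124 to 0.080. The replicate block gave 1245 higher and 1082 lower probe sets and 6 sterol probe sets higher at an unadjusted p under 0.05, with Scap 1433520_at in place of Hmgcs1 1433443_a_at; the other 5 were as reported.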
